A study of Mus musculus with 9 samples.

Results

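The untreated baseline of a culture sold as mouse pulmonary microvascular endothelial cells (PMVECs), the inner lining of small lung vessels, was described from its 3 room air (RA) libraries, out of 9 libraries in the series. The cells came from the supplier IMMOCELL and are labelled as primary cells of the lung. RA cells were kept at 21% oxygen for 48 h and received no recombinant WNT5A, which was given in another condition of the study. The other 6 libraries, from high oxygen with and without the recombinant protein, were not used, and no RA value was set against them. The labels number the RA libraries 1 to 3 without saying whether they came from separate cultures, so every SD is a spread among libraries that may share a culture. Each of 21911 protein-coding genes was given its FPKM (mapped fragments scaled to transcript length and library size), summed over its annotated transcripts. Values below are FPKM in RA replicates 1, 2 and 3 in that order, or mean ± SD with n = 3, and ranks run from the highest mean level downward.

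Endothelial cells are known by adhesion and signalling proteins that few other cells make, such as PECAM1, VE-cadherin and the VEGF and angiopoietin receptors, and by ETS, SOX17-group and TAL1-group transcription factors. Mural cells, which wrap vessels, instead carry contractile proteins, whose genes are driven by serum response factor (SRF) with its myocardin-family partners. HOX genes mark position along the body axis and are usually kept in culture, so the transcription factors of a culture are commonly read together with its structural genes.

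A level of at least 1 FPKM in each of the 3 libraries was reached by 10898 genes (49.7%), at least 10 FPKM by 5208 (23.8%) and at least 100 FPKM by 373 (1.7%). The median gene had 1.12 FPKM, and 5099 genes (23.3%) were listed at 0 in all 3 libraries. The depth estimated from the smallest steps in the table was roughly 26500000, 22600000 and 25400000 fragments, so that a 2 kb transcript at 1 FPKM rests on 45.2 to 52.9 fragments. Across 11129 genes whose mean was 1 FPKM or more, pairs of libraries correlated with r from 0.995 to 0.996, a description across genes, which are not independent replicates. Small structural RNA took 21.5%, 25.1% and 24.3% of the summed FPKM of the libraries and protein-coding genes 72.2%, 68.6% and 69.4%.

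The most abundant mRNAs were those of a secreted matrix-binding protein and of the actin cytoskeleton. Spp1, which encodes the secreted phosphoprotein osteopontin (chromosome 5, 104435118 to 104441050), had 4434, 4446 and 4746 FPKM and ranked 1 in every library. Actb, the cytoplasmic beta-actin, had 3717, 3592 and 3792 FPKM and ranked 2. The ranges of these genes did not overlap, but with the highest transcript of each gene in place of the sum the means were 3002 and 3083 FPKM and the ranges overlapped. Actg1, the cytoplasmic gamma-actin, ranked 5 at 2049 ± 91.9 FPKM, the actin monomer-binding Tmsb4x ranked 6 at 1819 ± 81.8, and Acta2, smooth muscle actin, ranked 8 at 1682 ± 101. Next came the intermediate filament gene Vim (1530 ± 47.8 FPKM), the calcium-binding S100a6 (1520 ± 80.1), the matrix gene Fn1 (1381 ± 55.6) and the matricellular Ccn2 (1376 ± 49), whose ranks were 9 to 12. The top 10 genes held 8.66 ± 0.160% of protein-coding FPKM and the top 100 held 23.8 ± 0.415%. The 6 actin genes alone held 2.75 ± 0.0579% and the 83 cytosolic ribosomal protein genes 7.32 ± 0.384%.

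**Figure D1:**
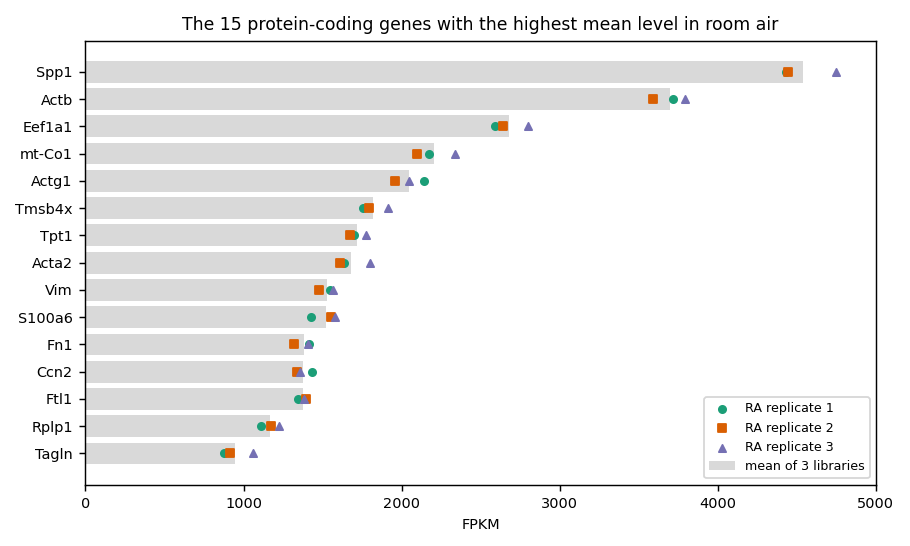
Bars give the mean FPKM (linear axis from 0) of the 15 highest protein-coding genes in room air, and points give RA replicates 1, 2 and 3. Spp1 stands at 4542 FPKM and Actb at 3700, and Acta2, Fn1, Ccn2 and Tagln are among the genes shown.

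Markers of the labelled cell type were mostly near 0. Of 29 pan-endothelial genes, 3 reached 1 FPKM in every library (10.3%), below the 49.7% of all protein-coding genes, and their median was 0.0535 FPKM. The summed level of the list was 62.9, 58.4 and 61.7 FPKM, most of it from Flt1. The count was 7 at a threshold of 0.5 FPKM, and 11 where levels were scaled to a fixed protein-coding total, when 12310 genes in all passed. None of the 9 defining markers reached 1 FPKM in every library, and 2 did under the fixed total, Kdr and Egfl7, with scaled means of 3.25 and 3.64. Pecam1, an adhesion protein of endothelial junctions (chromosome 11, 106654217 to 106750628), had 0.0406, 0.0984 and 0.0957 FPKM. Cdh5, the endothelial cadherin, had 0.0799, 0.0412 and 0.0394 FPKM, and Vwf, the von Willebrand factor, had 0.0147, 0.0514 and 0.00452 FPKM. At this depth such values rest on a handful of fragments. The angiopoietin receptor genes Tek and Tie1 had 0.0178 ± 0.0140 and 0.00981 ± 0.0104 FPKM, the tight junction gene Cldn5 had 0.0307 ± 0.0531, and Erg, an endothelial ETS factor, was listed at 0 in every library. Kdr, the main VEGF receptor, had 0.853, 0.806 and 0.983 FPKM, all under 1. Egfl7 had 0.361, 1.47 and 1.12 FPKM and so passed 1 in replicates 2 and 3 but not in replicate 1. In bulk RNA, few endothelial cells and little RNA of these genes per cell cannot be told apart.

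The 3 pan-endothelial genes above the threshold were spread over a wide range. Flt1, a VEGF receptor (chromosome 5, 147561604 to 147726011), had 44.4, 40.4 and 44.1 FPKM. Emcn, a sialomucin, had 10.9, 9.49 and 9.48 FPKM, and Plvap, of vessel wall diaphragms, had 2.072, 1.729 and 2.001. Their ranges did not overlap, so the order Flt1, Emcn, Plvap held beyond the spread between libraries. Most of the Flt1 level was assigned to a coding transcript of 13 exons and 6292 bases that stops inside the gene, with 27.7 ± 2.22 FPKM or 64.6% of the gene, against 11.8 ± 0.468 FPKM or 27.5% for the transcript of 30 exons. FLT1 is known to exist as a shortened, secreted protein that binds VEGF. Both transcripts share their upstream exons, so their split depends on the authors' estimation. Of 11 lung capillary markers 3 reached 1 FPKM in every library, Sema3c at 23.6 ± 4.08, Tbx3 at 1.79 ± 0.145 and Kit at 1.39 ± 0.137. The defining lung capillary genes Car4, Aplnr and Gpihbp1 did not. Of 7 lymphatic endothelial markers 3 did, namely Pdpn at 11.7 ± 1.26, the VEGFC receptor Flt4 at 6.32 ± 0.0664 and Lyve1 at 1.74 ± 0.555, while the lymphatic regulator Prox1 stayed at 0.719, 0.784 and 0.652 FPKM. Flt4 and Lyve1 were 2 of the 3 defining genes of this list, and all 3 passed at 0.5 FPKM. On the defining pan-endothelial and lung capillary markers the data therefore went against the label, and the libraries are called by their condition here.

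**Figure D2:**
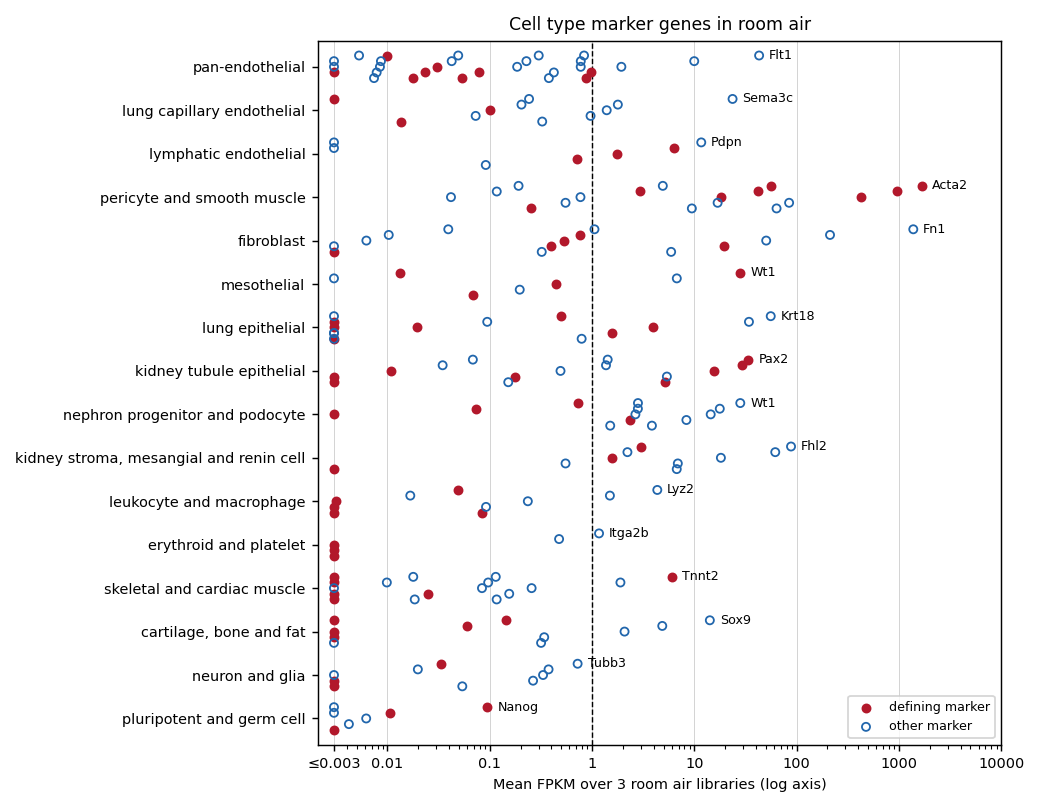
Each point is a marker gene at its mean FPKM over the 3 room air libraries (log axis, values at or under 0.003 drawn at 0.003), in rows by cell type list; filled points are defining markers, and the dashed line marks 1 FPKM. All 9 defining pan-endothelial markers lie left of the line, whereas 7 of 8 defining pericyte and smooth muscle markers and 4 of 8 defining kidney tubule markers lie right of it.

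Pericyte and smooth muscle genes had the highest summed level of the 16 marker lists. The summed level was 3213, 3209 and 3638 FPKM, most of it from Acta2, Tagln and Des. Of 18 genes, 12 reached 1 FPKM in every library (66.7%, against 49.7% of all genes). At 10 FPKM 9 of the 18 passed, against 23.8% of all genes. The kidney stroma and nephron progenitor lists had higher shares at 1 FPKM (80% and 76.9%). Acta2 (chromosome 19, 34241090 to 34255590) had 1637, 1612 and 1798 FPKM, of which 99.6% was assigned to a transcript of 9 exons. Tagln, the actin-binding transgelin, had 874, 915 and 1058 FPKM, and desmin (Des), an intermediate filament of muscle, had 411, 396 and 459. All of these were highest in replicate 3, and their ranges did not overlap. Surface and signalling genes of mural cells were lower, with Mcam at 84.4 ± 4.86, Cspg4 (the proteoglycan NG2) at 55.7 ± 3.46, the PDGF receptor Pdgfrb at 18.2 ± 1.07 and Notch3 at 4.92 ± 0.799 FPKM. Other contractile genes were uneven: Smtn had 63.6 ± 6.28, Cnn1 had 42.3 ± 5.78, Actg2 had 16.9 ± 2.92 and Lmod1 had 9.45 ± 0.630 FPKM, while Myh11, the smooth muscle myosin heavy chain, had 0.229, 0.261 and 0.262. The pericyte genes Rgs5, Kcnj8 and Abcc9 stayed under 1 FPKM, at 0.770 ± 0.0943, 0.0418 and 0.117.

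The regulators of contractile genes were all measured above 1 FPKM. Srf, the factor itself, had 23.2, 22.8 and 23.8 FPKM. Its actin-regulated partners Mrtfa and Mrtfb had 14.4 ± 1.82 and 14.2 ± 0.233, ranges that overlapped, and the muscle-restricted partner Myocd had 2.97 ± 0.109, below both. SRF binds the CArG box, a short motif that reads alike on both strands. Exact matches to it were counted on both strands in RefSeq promoter windows of 300 bases (around the annotated start, GRCm38.p6). A match was found in 10 of 43 members of the contractile and SRF gene families that have a window (23.3%), of 53 members in all, against 289 of 16518 protein-coding symbols (1.75%) and 535 of 32851 windows (1.63%). Among the 26 such members with a mean of at least 10 FPKM, 6 had a match (23.1%). Among the 17 below that level 4 had one (23.5%), and these were low or listed at 0, with Acta1 at 1.89, Actc1 at 0.114, Myl3 at 0.0821 and Myl7 at 0 FPKM. Leaving out Cnn2 and Myl6, the windows of 4 of the 6 expressed genes are shown as examples, with the matches in capitals. They are Actg1 (chr11:120348446-120348745, minus strand), Vcl, the focal adhesion protein vinculin (chr14:20929148-20929447, plus strand), Myl9, a regulatory myosin light chain (chr2:156775214-156775513, plus strand), and Srf itself (chr17:46556113-46556412, minus strand), each read 5′ to 3′ along the gene.
Actg1: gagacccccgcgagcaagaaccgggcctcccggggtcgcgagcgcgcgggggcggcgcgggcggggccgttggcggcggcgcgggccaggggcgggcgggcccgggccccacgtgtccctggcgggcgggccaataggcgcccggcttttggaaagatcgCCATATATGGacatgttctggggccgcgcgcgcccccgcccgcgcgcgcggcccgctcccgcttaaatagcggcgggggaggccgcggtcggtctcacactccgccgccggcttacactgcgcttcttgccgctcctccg
Vcl: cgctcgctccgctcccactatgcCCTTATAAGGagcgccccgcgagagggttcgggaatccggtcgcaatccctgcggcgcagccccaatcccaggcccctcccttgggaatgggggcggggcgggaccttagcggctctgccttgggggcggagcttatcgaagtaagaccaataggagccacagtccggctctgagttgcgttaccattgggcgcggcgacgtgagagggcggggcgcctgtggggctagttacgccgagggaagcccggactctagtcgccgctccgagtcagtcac
Myl9: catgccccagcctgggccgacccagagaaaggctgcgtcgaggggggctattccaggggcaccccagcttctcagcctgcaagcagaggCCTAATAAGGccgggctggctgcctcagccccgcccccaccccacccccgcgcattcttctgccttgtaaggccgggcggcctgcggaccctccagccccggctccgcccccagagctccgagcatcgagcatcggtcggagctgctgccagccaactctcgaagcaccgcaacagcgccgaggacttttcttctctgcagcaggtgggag
Srf: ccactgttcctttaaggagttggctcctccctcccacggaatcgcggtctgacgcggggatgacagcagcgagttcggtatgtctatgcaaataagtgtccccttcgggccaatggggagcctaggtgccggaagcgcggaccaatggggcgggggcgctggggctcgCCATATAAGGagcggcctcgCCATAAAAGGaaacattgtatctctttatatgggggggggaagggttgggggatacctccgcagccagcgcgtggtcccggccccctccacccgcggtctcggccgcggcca
The match began 90 bases before the start in Actg1, 227 in Vcl and 161 in Myl9, and Srf held 2 matches, the first of them 82 bases before the start. Vcl had 413, 390 and 420 FPKM and Myl9 62.3, 65.1 and 70.0. The window of Acta2 held no exact match, which says only that these letters are not in that window. A match is a description of the sequence, and binding was not measured.

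Genes of other cell types were present in part. Of 15 fibroblast markers 5 reached 1 FPKM in every library, led by Fn1 with 1416, 1317 and 1410 FPKM and the collagen gene Col1a1 with 212, 202 and 222. Col1a2 and Col3a1 were lower at 50.4 ± 2.97 and 19.5 ± 1.71. Of the 5 defining fibroblast genes 1 reached 1 FPKM in every library, Col3a1. The others were Pdgfra (0.757 ± 0.156), Dcn (0.530 ± 0.261) and Tcf21 (0.400 ± 0.114), with means under 1 FPKM, and Lum, which was listed at 0. Of 15 lung epithelial markers 4 reached it, among them the keratins Krt18 (50.4, 53.5 and 63.5 FPKM) and Krt8 (33.5, 31.7 and 37.3). Cdh1, the epithelial cadherin, had 3.64, 3.27 and 4.82 FPKM and Epcam had 1.36, 1.30 and 2.01, both highest in replicate 3. The lung-restricted factor Nkx2-1 and the secretory genes Sftpc and Scgb1a1 were listed at 0. Of 7 mesothelial markers Wt1 (28.1 ± 2.21) and Krt19 (6.74 ± 0.413) reached it. Wt1 was 1 of the 4 defining genes, and the others, Msln, Upk3b and Lrrn4, did not reach it.

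Few blood, nerve and stem cell markers reached the threshold. The leukocyte list had 2 of 10 genes at the threshold, Lyz2 at 4.34 ± 0.673 and Cd68 at 1.49 ± 0.179 FPKM, with 0 of its 5 defining genes. The red cell and platelet, neuron and glia, and pluripotent lists had 0 of 5, 0 of 10 and 0 of 7. The platelet integrin gene Itga2b had 0.961, 1.38 and 1.17 FPKM and passed without replicate 1. The skeletal and cardiac muscle list had 2 of 17, Tnnt2 at 5.99 ± 0.599 and Acta1 at 1.89 ± 0.166. Of its 6 defining genes 1 reached the threshold, Tnnt2, and the factors Myod1, Myog, Pax7 and Nkx2-5 did not. Of 11 cartilage, bone and fat markers 3 did, led by Sox9 at 14.2 ± 1.59, with 0 of the 5 defining genes.

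Transcription factors of kidney development were measured well above the threshold. Of 15 kidney tubule markers 7 reached 1 FPKM in every library (46.7%, close to the 49.7% of all genes), and these were mostly transcription factors. Pax2, a paired-box factor of the embryonic kidney and reproductive tract (chromosome 19, 44756045 to 44837871), had 32.6, 34.3 and 34.5 FPKM. Its relative Pax8 had 27.6, 30.0 and 30.8 FPKM and lay below Pax2 with no overlap of their ranges. With the highest transcript alone this order reversed, Pax2 having a mean of 17.99 and Pax8 of 20.8 FPKM, again without overlap. Emx2 had 5.39 ± 0.412, the tubule cadherin Cdh16 had 5.17 ± 0.470, and the endocytic receptor Lrp2 had 1.42 ± 0.152. Of the 8 defining genes of this list 4 reached the threshold, Cdh16 among them, and the rest were near 0. Umod and Aqp2 were listed at 0, Slc34a1 had a mean of 0.0108 and Hnf4a 0.176 FPKM. No other PAX gene reached 1 FPKM, so 2 of 9 did, and the next highest was Pax6 at 0.0222 ± 0.0317.

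Of 13 nephron progenitor and podocyte markers 10 reached the threshold (76.9%, against 49.7% of all genes), with a median of 2.81 FPKM. At 5 FPKM 4 of the 13 passed, none of them a defining gene, and 7594 of all 21911 genes did. Wt1, a zinc finger factor of the kidney, gonad and mesothelium, had 30.6, 27.2 and 26.5 FPKM, and Foxc2 had 17.2, 17.9 and 18.1. The zinc finger factor Sall1 (8.36 ± 0.363), Lmx1b (3.85 ± 0.117), Osr1 (2.65) and the progenitor factor Six2 (2.35 ± 0.286) were lower. Of its 4 defining genes 1 reached it, Six2. The progenitor gene Cited1 had a mean of 0.0730 FPKM and Nphs1, the slit diaphragm nephrin, had 0.907, 1.11 and 0.182 FPKM. Of 10 markers of kidney stroma, mesangium and renin cells 5 passed at 5 FPKM. The threshold of 1 FPKM was reached by 8 (80%, against 49.7% of all genes). These included Foxd1, the stromal progenitor factor, at 3.08, 2.74 and 3.22 FPKM, Gata3 at 1.82, 1.46 and 1.45, and Hoxd11 and Hoxa11 at 6.89 ± 0.481 and 6.73 ± 0.293, ranges that overlapped. Renin, Ren1, was listed at 0. The lists overlap, since Wt1 stands in the mesothelial list too and Pdgfrb in the mural one, and some of the markers, such as Fhl2 (88.1 ± 3.35) and Serpine2 (61.8 ± 3.73), are made by many cultured cells.

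Transcription factors passed 1 and 10 FPKM about as often as all genes, but 100 FPKM less often. Of 537 in 36 families, 289 reached 1 FPKM in every library (53.8%, against 49.7% of all genes). At 10 FPKM there were 132 (24.6%, against 23.8% of all genes). A level of 100 FPKM, held by 1.7% of all genes, was reached by 2 of the 537. Those 2 were Id3, an inhibitor of basic helix-loop-helix factors, with 106, 107 and 108 FPKM, and Tead1, the DNA-binding partner of YAP, with 108, 103 and 111. Jund, an AP-1 subunit, followed with 107, 105 and 99.99, and the ranges of all of these overlapped. The YAP and TEAD family reached the threshold in 6 of 6 members, with Yap1 at 47.8 ± 1.49 and Wwtr1, which encodes TAZ, at 36.4 ± 2.07. Stat3 and Nfkb1, also among the 40 highest, came from families wholly at the threshold, with 7 of 7 STAT and 5 of 5 NF-kappaB genes. Several other factors among the 40 highest came from families with members on both sides of it. Klf6 had 89.996 ± 2.21 (18 of 26 KLF and SP genes reached the threshold), the translation-stress factor Atf4 had 86.5 ± 5.08 (18 of 19 ATF, CREB and C/EBP genes), the TGF-beta effector Smad3 had 60.4 ± 1.81 (7 of 8 SMAD genes) and Etv4, an ETS factor downstream of FGF signals, had 54.1 ± 3.63 (16 of 24 ETS genes). Junb of AP-1 had 62.5 ± 4.24 and overlaps Prdx2 on the opposite strand, which had 205 FPKM. Runx1 had 43.0 ± 0.800, Hif1a had 41.7 ± 1.69 and Foxs1, a forkhead factor known from pericytes, had 39.8 ± 2.24. Of the factors of epithelial-mesenchymal transition 5 of 7 reached the threshold, led by Zeb2 (36.7 ± 1.73), Snai2 (16.1 ± 0.719) and Zeb1 (12.6 ± 1.42). Families that mark other tissues were low, with 4 of 28 tissue bHLH genes, 1 of 8 GLI and ZIC genes (Gli3, 12.5 ± 0.153) and 2 of 16 T-box genes at the threshold.

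**Figure D3:**
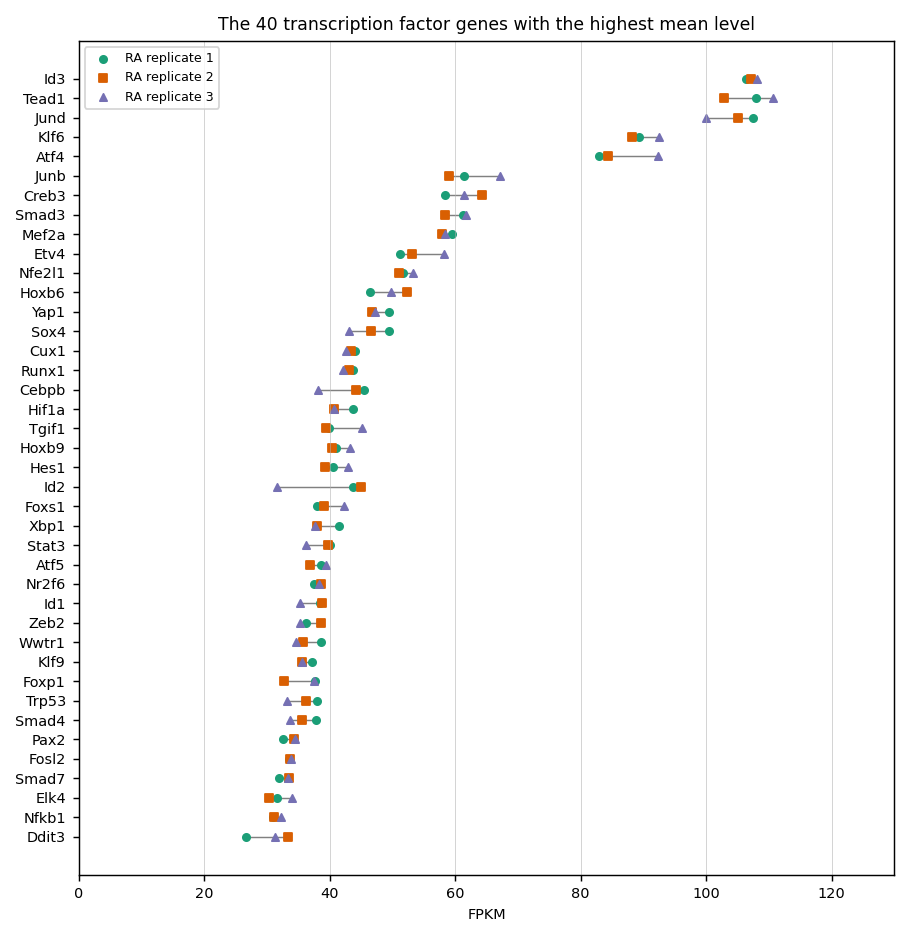
FPKM (linear axis from 0) of the 40 transcription factor genes with the highest mean, with RA replicates 1, 2 and 3 as separate symbols joined by a line over their range. Id3, Tead1 and Jund overlap near 100 FPKM, Pax2 lies near 34, and Id2 spans 31.7 to 45.0.

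HOX genes were broadly present, except at the ends of the clusters. Of 39 genes 31 reached 1 FPKM in every library (79.5%, against 49.7% of all genes). At 10 FPKM 12 of the 39 passed, against 23.8% of all genes. The summed level of the B cluster was 188, 199 and 204 FPKM, above that of the A cluster (91.2 ± 1.33), the C cluster (46.5 ± 1.60) and the D cluster (36.5 ± 0.754), with no overlap between clusters. Hoxb6 had 46.4, 52.3 and 49.8 FPKM, Hoxb9 had 40.9, 40.3 and 43.2, and Hoxa10 had 30.2, 27.8 and 29.2, again with separate ranges. With the highest transcript alone Hoxb6 fell below Hoxb9, at means of 28.8 and 41.5 FPKM. In paralog groups 2 to 11 every gene in the table reached the threshold, among them Hoxa11, Hoxc11 and Hoxd11 of group 11. At the anterior end, Hoxb1 and Hoxd1 of group 1 had means of 0.00498 and 0.0118 FPKM. In the most posterior groups 12 and 13 none of 2 and none of 4 did. The highest gene of group 13 was Hoxc13 with 1.10, 0.840 and 0.564 FPKM. The antisense gene Hoxa11os overlaps Hoxa11 and had 4.06 FPKM against 6.73, and strand use in the counting is not stated, so these levels cannot be told apart with certainty.

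**Figure D4:**
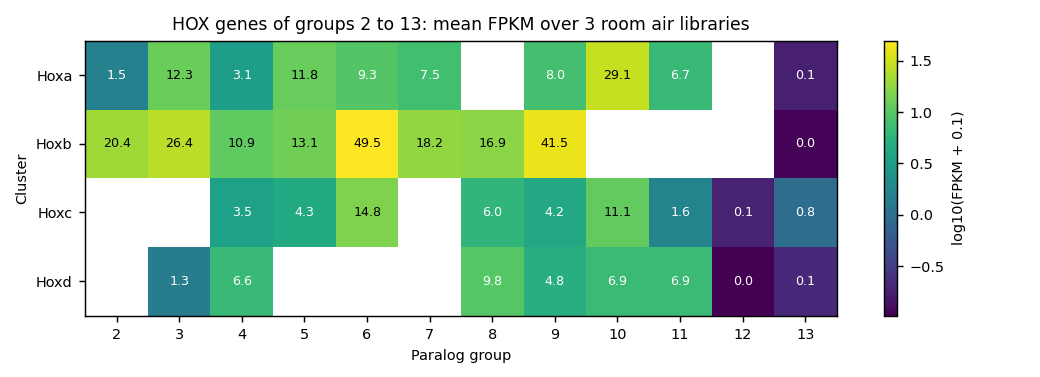
Mean FPKM of each HOX gene in room air, by cluster (rows) and paralog group (columns, from group 2), coloured by log10(FPKM + 0.1); white cells have no gene. Hoxb6 at 49.5 and Hoxb9 at 41.5 are brightest, Hoxd11 stands at 6.9, and every gene of groups 12 and 13 has a mean under 1.

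Surface receptors were led by adhesion to matrix and by the thrombin receptor. Of 419 receptor genes 185 reached 1 FPKM in every library (44.2%, against 49.7% of all genes). At 10 FPKM there were 96 (22.9%, against 23.8% of all genes), and 11 reached 100 FPKM, a level held by 1.7% of all genes. Itgb1, the shared beta subunit of most matrix integrins, had 801, 790 and 845 FPKM and ranked 17 of all genes. Its fibronectin partner Itga5 had 318, 311 and 348, the laminin partner Itga3 had 150 ± 6.38 and Itgav had 147 ± 9.37, the last 2 with overlapping ranges. The leukocyte integrin genes Itgb2, Itgal and Itgam were near 0, at 0.0658, 0.0140 and 0.0838 FPKM. F2r, which encodes the protease-activated receptor PAR1 that thrombin cleaves (chromosome 13, 95601803 to 95618487), had 726, 691 and 715 FPKM and ranked 21. Of 23 protease and purine receptors it stood far above the next, F2rl1, at 31.8 ± 1.41.

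Growth factor and clearance receptors came next. Of 52 receptor tyrosine kinases 26 reached the threshold (50%, close to the 49.7% of all genes). Axl, the receptor of GAS6, had 224, 214 and 223 FPKM, Fgfr1 had 95.6, 99.2 and 105, and Epha2 had 87.3, 85.8 and 86.7. The heparan sulfate proteoglycan Sdc4 had 206 ± 6.53 FPKM, the endocytic receptor Lrp1 had 196 ± 3.73, and Tnfrsf12a, the TWEAK receptor, had 181 ± 9.93. Others near 100 FPKM were the adhesion receptor Adgra2 (102 ± 5.21), the growth hormone receptor Ghr (90.9 ± 7.02), the netrin receptor Unc5b (88.5 ± 2.86), the hyaluronan receptor Cd44 (87.7 ± 5.59) and Nrp1 (81.6 ± 1.11), a co-receptor of VEGF and semaphorins that many cell types share. All 4 Notch receptors reached the threshold, led by Notch2 at 42.1 ± 2.35. None of 22 chemokine receptors did, the highest being Ackr3 at 0.665 ± 0.139. Of 63 receptors for vasoactive peptides and amines 12 did, led by the serotonin receptor Htr1b at 26.6 ± 1.22.

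Several secreted genes were among the highest of all. Of 514 genes 193 reached 1 FPKM in every library (37.5%, against 49.7% of all genes). Yet 26 reached 100 FPKM, a level held by 1.7% of all genes, and the class held 6.21%, 6.02% and 6.12% of protein-coding FPKM. Besides Spp1, Fn1 and Ccn2, the plasminogen activator genes Plau and Plat had 228 ± 24.5 and 227 ± 11.6, with overlapping ranges. Other matricellular genes were Sparc (681 ± 32.0), Thbs1 (604 ± 20.3), Tnc (305 ± 14.8) and Ccn1 (281 ± 14.7), the last, with Ccn2, a known YAP target. Basement membrane genes included Nid1 at 237, 215 and 215 FPKM, Col4a1 at 196, 194 and 194, Lamb1 at 183 ± 4.77 and Hspg2 at 166 ± 4.23. Of 44 collagens 21 reached the threshold (47.7%) and of 11 laminins 8 did (72.7%), against 49.7% of all genes. Matrix-cutting enzymes and their inhibitors were both abundant, with Mmp2 at 203 ± 10.7, Timp2 at 207 ± 19.6 and Timp1 at 204 ± 12.9, whose ranges overlapped. The insulin-like growth factor-binding protein gene Igfbp7 had 557 ± 21.6.

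Signalling ligands differed by family, against 49.7% of all genes at the threshold. Of 14 semaphorins, netrins and slits 10 reached it (71.4%), led by Sema3f at 44.4 ± 2.39, and of 19 VEGF, PDGF and angiopoietin genes 13 did (68.4%), led by Pdgfc at 33.6 ± 1.19. Of 34 TGF-beta, activin, BMP and GDF genes 12 did (35.3%), with the procollagen protease Bmp1 at 122 ± 1.03, Tgfb3 at 86.5 ± 3.22, the stress-induced Gdf15 at 81.2 ± 1.10 and the activin gene Inhba at 78.6 ± 3.69. The EGF-type ligand Hbegf had 90.5 ± 4.69 and the cytokine Csf1 had 54.6 ± 4.90. Vegfa had 21.0, 22.1 and 22.4 FPKM. Of 22 FGFs 5 reached the threshold (22.7%), led by Fgf2 at 9.32 ± 0.602. Of 37 chemokines 4 did (10.8%), led by Ccl25 at 7.68 ± 0.401, a gene overlapped on the opposite strand by Elavl1 at 26.7 FPKM, so that its own level is uncertain.

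Structural genes held 8.28%, 8.23% and 8.52% of protein-coding FPKM, the most of the 4 classes described. Of 285 genes 115 reached 1 FPKM in every library (40.4%, against 49.7% of all genes). A level of 100 FPKM, held by 1.7% of all protein-coding genes, was reached by 42. Non-muscle myosin stood far above muscle myosin: Myh9 had 527, 519 and 572 FPKM and Myh10 had 30.9 ± 2.43, while 12 of 14 heavy chains, Myh11 among them, did not reach the threshold. Tpm1, a tropomyosin, had 465, 487 and 560 FPKM, the actin crosslinker Flna had 501 ± 16.3 and Actn1 had 432 ± 14.3. Nes, the progenitor and mural intermediate filament nestin, had 119 ± 9.17. Of 53 keratins 5 reached the threshold, which besides Krt18 and Krt8 included Krt20 at 28.7, 29.4 and 31.5 FPKM, a keratin known from gut and bladder lining, and Krt7 at 4.58 ± 1.40. Cav1 of caveolae had 122.7 ± 4.19.

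Cadherins and junction genes followed a mixed pattern. Cdh6, a cadherin of the developing kidney (chromosome 15, 13028701 to 13173675), was the highest of 23 with 138, 128 and 127 FPKM. Cdh11, a cadherin of mesenchyme, had 118, 115 and 131, a range that overlapped it, and Cdh2, N-cadherin, had 63.7, 63.1 and 60.9. Cdh1 and Cdh5 lay below these at 3.91 ± 0.809 and 0.0535 ± 0.0229. Of 23 claudins 6 reached the threshold, led by Cldn4 at 37.0, 35.8 and 44.9 FPKM and Cldn12 at 34.4 ± 1.42, and of 16 desmosome genes 4 did, led by Pkp2 at 22.2 ± 0.603. Of 20 connexins 5 did, with Gja1 at 75.7 ± 1.98 far above the others.

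**Figure D5:**
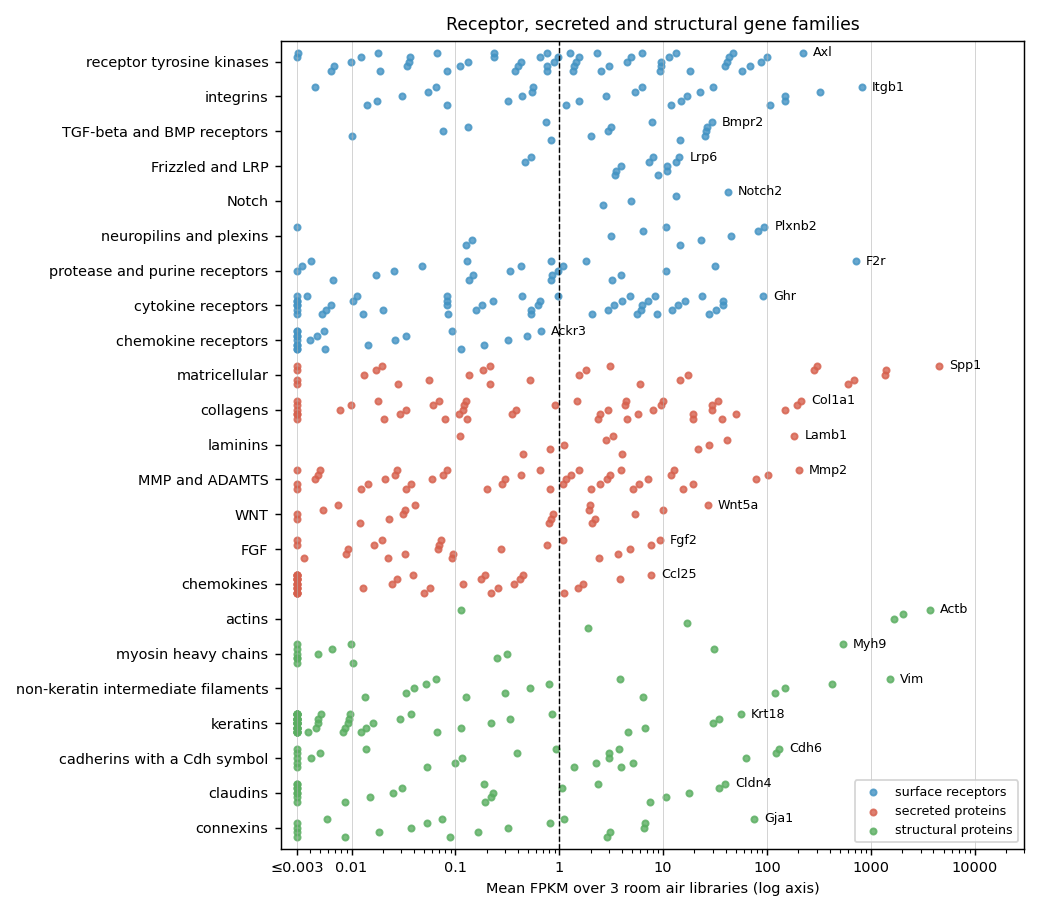
Mean FPKM of every gene (log axis, values at or under 0.003 drawn at 0.003) in families of receptors, secreted and structural proteins, with the highest gene named and 1 FPKM dashed. Actins, integrins, matricellular genes and non-keratin intermediate filaments reach beyond 800 FPKM, and all 22 chemokine receptors lie left of the line.

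Cell cycle genes were nearly all present. All 20 mitosis genes reached 1 FPKM in every library, against 49.7% of all genes, with a median of 4.61 FPKM against 1.12 for all genes and 2 at 10 FPKM or more. Top2a, the topoisomerase of dividing cells, had 10.9, 11.3 and 11.4 FPKM and the proliferation marker Mki67 had 2.74, 3.52 and 3.24. Of 20 DNA replication genes 18 reached it, with a median of 4.81 FPKM, led by Rrm2 at 30.0 ± 1.36 and Pcna at 24.7 ± 0.964. All 22 genes of the list of cell cycle inhibitors, cyclins and the p53 axis reached it, with a median of 38.3 FPKM. Ccnd1, cyclin D1, had 318, 305 and 283 FPKM. Cdkn1a, the inhibitor p21, had 217, 207 and 214 FPKM, and Mdm2, which degrades p53, had 160, 163 and 152. Trp53 itself had 38.0, 36.2 and 33.2, and was highest in replicate 1 like Ccnd1. Cdkn2b, which encodes p15, had 82.1 ± 3.78. Cdkn2a had 44.9, 45.4 and 43.2 FPKM, of which 69.4% was assigned to the transcript that starts upstream, with the ARF first exon, and 30.6% to the one that starts at the p16 exon. These transcripts share their later exons, so the split is uncertain.

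Most receptor and cofactor genes of the study's ligand, WNT5A, were above the threshold at baseline. Of 16 genes of the WNT5A list 15 reached 1 FPKM in every library (93.8%), against 49.7% of all genes. Activity of the pathway was not measured. Wnt5a itself (chromosome 14, 28504750 to 28527448) had 27.9, 26.5 and 25.9 FPKM and was the highest of 19 WNT genes, of which 7 reached the threshold. Among its receptors Ptk7 had 69.4, 66.4 and 70.5 FPKM and Ryk had 40.7, 37.7 and 38.7. The highest Frizzled receptors of the list were Fzd7 (10.99 ± 0.641) and Fzd2 (8.93 ± 0.207), with Fzd6, which is not in it, at 10.97 ± 0.290, and Fzd4 had 3.60, 3.35 and 3.44. The ROR kinases were lowest, with Ror1 at 1.45, 1.45 and 1.24 FPKM and Ror2 at 0.872, 0.712 and 0.675. The ranges of Ptk7, Ryk, Fzd4, Ror1 and Ror2 did not overlap.

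Of 20 oxygen handling enzymes 17 reached 1 FPKM in every library (85%, against 49.7% of all genes). The same 17 reached 10 FPKM, a level held by 23.8% of all genes. Gpx4, which reduces lipid peroxides, had 211, 217 and 220 FPKM and the peroxiredoxin Prdx2 had 203, 206 and 205. The oxidase Nox4 had 25.2, 24.1 and 25.8 FPKM. Nqo1, a quinone reductase and common NRF2 target, had 1.06, 0.746 and 0.695 FPKM, and the secreted superoxide dismutase Sod3, which is known from vessel walls, had 0.0167 ± 0.0119.

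The spread between libraries was small for nearly all of these genes. The median SD of log2(FPKM + 1) was 0.0681 over the same 11129 genes, and the median coefficient of variation was 5.41%. It was 7.16% from 1 to 10 FPKM and 4.04% from 100 FPKM upward. Some transcripts of a gene were less stable than the gene: the main Spp1 transcript of 1410 bases had 1858, 3064 and 3507 FPKM and another of 1456 bases had 2433, 829 and 763, while their gene varied from 4434 to 4746. Levels of such near-identical transcripts within a gene were not compared further.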

How the data were processed

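The deposited table gives FPKM for 143043 transcripts, 142351 with Ensembl identifiers, of which 141441 were found in GENCODE M21 (GRCm38). Per the labels' protocols, the authors made total RNA libraries, trimmed reads with Skewer 0.2.2, aligned them with STAR 2.5.3a and assembled transcripts with StringTie 1.3.1, set against Ensembl with gffcompare 0.9.9c. The submitters' processing notes list the builds hg38 and mm10 without a role, and the identifiers are those of mouse. Strand use is not given in the sources used here. Here FPKM was summed over the 101575 transcripts of protein-coding genes, unscaled, with Python 3.11.15, pandas 2.3.3, numpy 2.4.6, scipy 1.17.1 and matplotlib 3.10.9, and the script was tested on simulated data. Some results that the naming rule covers are not reported here. Only 1 group was used, so no test was run and no p-value is given. An order of genes was called only where their ranges over the 3 libraries did not overlap. Members and lists were chosen with earlier results of these data known. The naming rule took the 20 highest genes, the 4 highest of each list or family above threshold, every defining marker, the 10 most variable genes and Wnt5a, Ror2, Ryk and Fzd4. Abcc9, Ackr3, Actc1, Ccn1, Cdkn2a, Cdkn2b, Fzd2, Hoxa11, Hoxb1, Hoxc11, Hoxc13, Hoxd1, Itga2b, Itgal, Itgb2, Kcnj8, Krt7, Lmod1, Lrp2, Mdm2, Mki67, Myl3, Myl7, Nox4, Nqo1, Osr1, Pax6, Rgs5, Smtn, Sod3, Thbs1 and Tnc were named after their values were seen. The S100 pattern and the name of the cadherin family were corrected after the values were seen. Tried alternatives were thresholds of 0.5 and 5 FPKM, the highest transcript alone, transcripts annotated as coding, 2 scalings, another pseudocount, and each library left out.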

Additional observations from a re-analysis of the deposited data

How the results depend on the processing

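The threshold decided some counts. At 0.5 FPKM, 7 of 29 pan-endothelial genes passed in place of 3, and at 5 FPKM the genes of all marker lists fell from 62 to 37 and those of the kidney tubule from 7 to 4. Nephron progenitor and podocyte genes fell from 10 to 4 and kidney stroma genes from 8 to 5, with 0 defining genes left in either list. Of all protein-coding genes 7594 passed at 5 FPKM, against 10898 at 1 FPKM. Scaled to a fixed protein-coding total as TPM is, which multiplied levels by 3.68 to 3.70, 11 pan-endothelial genes passed 1. The median SD of log2 levels was 0.0770 with a pseudocount of 0.1 and 0.0612 over genes whose mean was 5 FPKM or more, against 0.0681. Without each library in turn, genes at 1 FPKM numbered 10957 to 10983, marker genes 62 to 64, family genes 786 to 789 and pan-endothelial genes 3 to 4, the last higher without replicate 1 because Egfl7 then passed, while pericyte and smooth muscle genes stayed at 12 and kidney tubule genes at 7. Of the 100 highest genes, 98 to 99 stayed among them, 84 with the highest transcript alone and 91 with coding transcripts alone. Levels were recomputed for 77 genes, the 20 highest, the defining markers and 4 genes of the study question. None of these moved beyond 1 SD with median ratio scaling, 17 did with coding transcripts alone, 25 with the highest transcript alone and all 77, by construction, under the fixed total. Leaving out 1 of 3 libraries cannot move a mean by 1 SD and so says nothing of stability. By ratio the highest transcript alone moved Tnnt2 most among those at 1 FPKM or more, from 5.99 to 2.19 FPKM. Of 15 gene pairs whose order was checked, 12 kept it with the highest transcript alone, a check added after seeing the data: those of Pax2 over Pax8 and Hoxb6 over Hoxb9 reversed, Spp1 and Actb overlapped, and all 15 kept their order under the other settings that give levels. Summing entries of a shared symbol, an alternative chosen after seeing the data, left 10894 genes at the threshold. No paired analysis was possible because a single group was described and no test was made. FPKM hides read counts, so the counting error of values under 0.1 FPKM is unknown, and overlapping genes may share fragments, both where the neighbour is lower, as Polr2b (12.7 FPKM) beside Igfbp7, and where it is higher, as Prdx2 (205) beside Junb and Elavl1 (26.7) beside Ccl25.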

Other observations

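Genes of the Y chromosome and the X-inactivation transcript were both present. Ddx3y had 13.28, 11.95 and 12.31 FPKM, Eif2s3y had 14.7, 13.9 and 16.05, Uty had 12.4, 13.4 and 14.3 and Kdm5d had 5.61 ± 0.648. Xist had 5.24, 5.06 and 4.90 FPKM in the same libraries. Each value varied little between the 3 libraries.

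Among long non-coding RNAs, the nuclear Malat1 had 1324, 1510 and 1474 FPKM and Neat1 had 326 ± 19.4. The imprinted Meg3 had 26.9 ± 2.003 and H19 had 1.17 ± 0.177.

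The genes that varied most between the libraries, among those with a mean of at least 10 FPKM, included replication histones and mitochondrial genes. Hist1h2br had 15.1, 16.1 and 47.2 FPKM and Hist1h2bq had 15.1, 16.5 and 30.4, both highest in replicate 3. The mitochondrial mt-Nd6 had 175, 372 and 373 and mt-Nd5 had 167, 265 and 284, both lowest in replicate 1. Of the 2 entries named Myl12b, a myosin light chain gene, the higher had 89.7, 186 and 194 FPKM. It overlaps the other entry, which had 45.3, 42.8 and 45.5, and Myl12a on the same strand, so the level of Myl12b itself is uncertain.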
